A study of Homo sapiens with 12 samples.

Results

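Huh7 cells exposed to Molidustat for 48 h were compared with Huh7 cells exposed to it for 24 h. Huh7 is an established human hepatocellular carcinoma line, and Molidustat is a small molecule that inhibits the prolyl hydroxylases which mark the hypoxia-inducible factors (HIF) for destruction. The members are the 6 of 12 libraries whose labels give Molidustat at 25 µM, 3 at 24 h and 3 at 48 h. The other 6 libraries were given DMSO, the vehicle, for the same times, and 5 of them were used for reference (3 at 24 h and 2 at 48 h). DMSO 48 h replicate 2 was left out of every result below except where a fit of all 12 libraries is named, because reads outside every annotated feature made up 50.4% of it, whereas they were 17.1 to 25.6% of each of the 11 remaining libraries. All 12 cultures were the same line in the same high-glucose medium with 10% serum, and the study describes 3 biological replicates per condition. Cells were put in culture with the compound and collected 24 h or 48 h later, so longer exposure and longer culture cannot be told apart in the treated cells alone.

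In cells with enough oxygen, prolyl hydroxylases (EGLN1, EGLN2, EGLN3) modify HIF-1α and HIF-2α, the products of HIF1A and EPAS1, and the VHL protein then directs them to the proteasome. When the hydroxylases are blocked, HIF binds DNA and raises genes of glycolysis, glucose uptake, angiogenesis, mitophagy and erythropoietin production. Hepatocytes secrete most plasma proteins and apolipoproteins and carry out the urea cycle, and hepatoma lines keep part of this programme.

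Sequencing was of the 3′ ends of transcripts, and levels are given as CPM, the counts of a gene scaled to the library's total on genes and to TMM factors over 11 libraries. The unit has no gene length in it, so levels are compared between libraries. Where a marker is said to have the most counts of its list, that is a share of the counts and not of the transcripts by length. The 24 h libraries held 2703897, 8202125 and 5101950 counts on genes and the 48 h libraries 4249851, 2312396 and 5122636. The labelled cell type was borne out by its markers: all 21 hepatocyte and hepatoma markers had counts in each library, with AFP, the fetal serum protein, holding the most counts at 5821 to 10720 CPM. The sum of these markers was 28500, 29220 and 33320 CPM at 24 h and 35300, 37240 and 39200 CPM at 48 h, so the groups did not overlap. Of the 21 markers, 5 (TF, APOA1, APOH, SERPINA1 and FGG) were higher and 3 (HNF4A, KRT8 and KRT18) lower at an unadjusted p under 0.05. The keratin gene KRT8 had 1909.7, 1753 and 1046 CPM at 24 h and 1057, 825 and 885 CPM at 48 h and its partner KRT18 2402, 2995 and 1493 CPM at 24 h and 1519, 1189 and 1491 CPM at 48 h, and both have processed pseudogenes with which reads may be shared. The markers ALB, AFP, TTR, APOB, FGA, FGB and RBP4 had log2 fold changes of -0.24 to 0.25 with an unadjusted p of 0.33 or more. The 9 fibroblast and stellate cell markers summed to 2.97, 5.09 and 8.19 CPM at 24 h and to 23.0, 15.3 and 15.8 CPM at 48 h, with COL1A2 or LUM holding the most counts and ACTA2, THY1 and POSTN at 0 in all 6 libraries. The 8 endothelial markers summed to at most 6.67 CPM, nearly all of it PECAM1, and the 6 erythroid markers were at 0. Of the 10 leukocyte markers between 4 and 7 were at 0 in each library and LYZ made up most of the sum, and SOX9 had the most counts of 6 biliary markers. The levels of LYZ and SOX9 are given with the other genes. The part of other cell types in the results was not tested.

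One measure of RNA or library quality moved with the time point. The share of reads on no annotated feature was 21.3, 25.6 and 24.3% at 24 h and 21.4, 17.1 and 18.1% at 48 h. Molidustat 24 h replicate 2 also stood apart by depth and by the smallest share of counts on the mitochondrial genome, 1.46% against 2.40 to 3.61% in the other 5 libraries. Values with this share as a covariate, a fit added after the data had been seen, are given with many of the gene lists and with some genes.

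Of 13272 genes tested, edgeR's quasi-likelihood test called 0 at a Benjamini-Hochberg adjusted p under 0.05 (0% of genes in each direction), and the smallest adjusted p was 0.16. At an unadjusted p under 0.05 there were 430 genes higher at 48 h (3.24% of genes) and 580 lower (4.37%). These counts were 273 and 220 with the no-feature share as a covariate and 479 and 495 with total counts. With 1 library left out they ranged from 279 to 600 higher and from 454 to 639 lower. Counts of list members under those settings are to be read beside these counts of all genes. The 3 libraries of one time lay wholly above the 3 of the other in 997 genes higher (7.51%) and 926 lower (6.98%) at 48 h. DESeq2 called 28 genes higher (0.29% of the 9668 genes with an adjusted p) and 53 lower (0.548%), and none of these 81 overlapped between the times. It called 13 higher and 32 lower without Molidustat 48 h replicate 1, 11 and 21 without replicate 2, 6 and 14 without replicate 3, and 23 and 35 without Molidustat 24 h replicate 3. Among the genes named below, the calls of SERPINF2, FADS1, PDGFA, MT1X, LOXL4 and ERP27 were kept in 2 of the 6 fits that left out a library, and that of PHGDH in 1. Limma-voom with sample quality weights called 3 higher (0.0226%) and 10 lower (0.0753%), and all 13 were among the DESeq2 calls. The median of all genes was −0.02 on the log2 scale. The 95% interval of a typical gene reached 0.94 to either side and is not adjusted for the number of genes. Of the 1471 genes with a log2 fold change beyond 1, edgeR called 0. Changes of that size, and smaller ones, could thus go undetected at this depth and spread. In the text, "called" names the tool, and all other differences are values that did not pass the edgeR test.

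**Figure D1:**
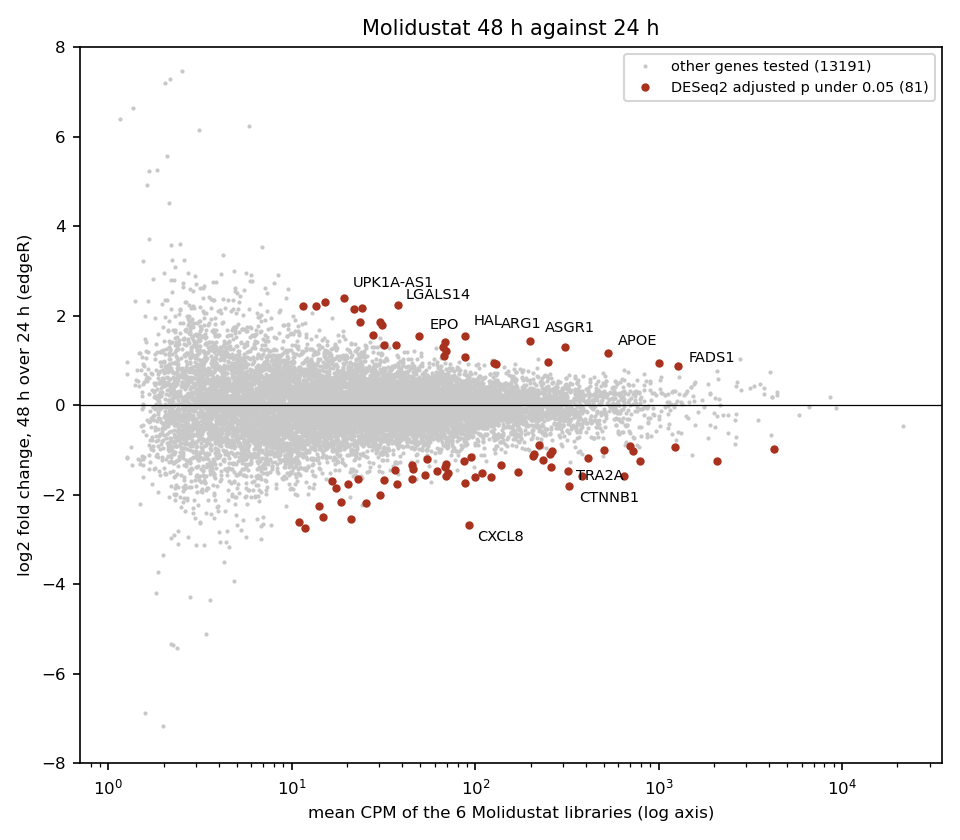
Each point is 1 of the 13272 genes tested in the 6 Molidustat libraries, with its mean CPM on a log axis and its edgeR log2 fold change (48 h over 24 h). The 81 genes with a DESeq2 adjusted p under 0.05 are in red, and CXCL8 lies lowest among those with a mean above 50 CPM.

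The clearest difference was in chemokines, the secreted proteins that attract leukocytes. CXCL8 (interleukin-8, chr4:73740519-73743716 in GRCh38), which draws neutrophils, had 190.5, 148 and 139 CPM in the 3 libraries at 24 h and 8.83, 30.2 and 37.0 CPM at 48 h. Its lowest 24 h library was more than 3 times its highest 48 h library. The log2 fold change was -2.67 ± 0.43 (SE, n = 3 per group; edgeR adjusted p = 0.16), and CXCL8 was called lower by DESeq2 (adjusted p = 2.4e-06), by limma-voom (adjusted p = 0.024) and by edgeR when 11 libraries shared 1 estimate of the spread (adjusted p = 0.043). That fit called 2 genes higher and 2 lower of 15253 (0.0131% each), and 668 (4.38%) were higher and 741 (4.86%) lower at an unadjusted p under 0.05. With the no-feature share as a covariate the log2 fold change of CXCL8 was -4.07. CXCL1 (chr4:73869393-73871308), another neutrophil chemokine, had 199, 157 and 91.6 CPM at 24 h and 50.2, 38.8 and 58.0 CPM at 48 h (-1.61 ± 0.33; called lower by DESeq2, adjusted p = 0.0017). These groups did not overlap either. CXCL5 had 33.4, 23.9 and 35.1 CPM at 24 h and 18.8, 4.96 and 10.5 CPM at 48 h, and CCL20, which attracts dendritic cells and lymphocytes, 407, 525 and 367 CPM at 24 h and 188, 271 and 300.1 CPM at 48 h. IL32, a cytokine, overlapped between the times (29.6 to 66.0 CPM at 24 h and 19.97 to 31.1 CPM at 48 h). NFKBIA, which encodes the inhibitor that holds NF-κB in the cytoplasm, had 173, 226 and 171 CPM at 24 h and 138, 112 and 123 CPM at 48 h. The edgeR fit of the 6 libraries called none of the 17 chemokine and cytokine genes tested, and at an unadjusted p under 0.05 there were 6 lower (35.3%) and 0 higher, against 4.37% and 3.24% of all genes. Their median log2 fold change was -0.70, and with the no-feature share as a covariate 3 of the 17 were lower at that p.

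DMSO-treated cells showed the same direction for CXCL8 and CXCL1 over the same day of culture. CXCL8 had 19.9, 32.6 and 23.5 CPM in the DMSO 24 h libraries and 0.284 and 0.760 CPM in the pair at 48 h, and CXCL1 43.3, 50.6 and 39.0 CPM and 4.26 and 8.79 CPM. Both were called lower by edgeR in the DMSO comparison (adjusted p = 0.0019 for CXCL8 and 0.021 for CXCL1), the 2 genes lower (0.0131% of 15253) beside 0 higher. There were 0 lower without DMSO 48 h replicate 1 or 3, which leaves 1 library at that time, and 1 without DMSO 24 h replicate 2, with all 12 libraries or with the replicate number as a block. At an unadjusted p under 0.05 there were 441 genes higher (2.89%) and 173 lower (1.13%) in DMSO. At both times the Molidustat libraries lay above the DMSO libraries of the same time for CXCL1, and for CXCL8 as well. The time change differed between the treatments by 2.81 (95% interval 1.23 to 4.39) for CXCL8 and by 1.14 (95% interval 0.11 to 2.18) for CXCL1 on the log2 scale, with an edgeR adjusted p of 0.9998 for each.

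Several promoters of this group share a letter sequence of the kind bound by NF-κB, GGAATTTCC, searched on both strands after the expression values had been seen. It occurs in 0.461% of 35116 RefSeq promoter windows (250 bases before to 50 bases after a gene's start, GRCh38.p14) and in those of 8 of the 13 tested chemokine and cytokine genes with a window (CXCL1, CXCL2, CXCL3, CXCL5, CXCL6, CXCL8, CXCL10 and NFKBIA). The stretches around it are shown for 4 genes of this group, 5′ to 3′ on the gene's strand, with the match in capitals (in NFKBIA it lies on the other strand and reads GGAAATTCC). They lie at chr4:73740443-73740522 (plus strand), chr4:73869280-73869359 (plus), chr4:73998723-73998802 (minus) and chr14:35404786-35404865 (minus). The 4 genes shown are those with a match whose levels are given above. Levels of CXCL2, CXCL3, CXCL6 and CXCL10 are not given here. The windows of CCL20 and IL32, whose levels are given above, hold no match. Whether a match goes with the time change was not tested. A match is a description of the letters and not of binding.
CXCL8: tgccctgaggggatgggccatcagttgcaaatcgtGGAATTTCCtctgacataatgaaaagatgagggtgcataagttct
CXCL1: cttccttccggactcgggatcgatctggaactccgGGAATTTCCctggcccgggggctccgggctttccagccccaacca
CXCL5: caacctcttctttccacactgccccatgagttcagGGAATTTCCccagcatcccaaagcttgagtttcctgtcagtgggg
NFKBIA: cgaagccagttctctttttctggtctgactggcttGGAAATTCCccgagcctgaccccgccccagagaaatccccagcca

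HAL, ASGR1 and ARG1, which are genes of differentiated hepatocytes, stood at a higher level at 48 h. HAL, histidine ammonia-lyase, the first enzyme of histidine breakdown (chr12:95972662-95996365), had 40.8, 42.8 and 49.1 CPM at 24 h and 131, 130.3 and 132 CPM at 48 h. The 3 libraries at 48 h were close together and far above all of those at 24 h. The log2 fold change was 1.55 ± 0.27, called higher by DESeq2 (adjusted p = 7.3e-05), by limma-voom (0.046) and by edgeR in the fit of 11 libraries (0.043). ASGR1, a subunit of the asialoglycoprotein receptor of the hepatocyte surface (chr17:7173431-7179564), had 187, 159 and 188 CPM at 24 h and 473, 387 and 467 CPM at 48 h (1.30 ± 0.25), with calls by the same 3 fits (adjusted p = 1.3e-04, 0.046 and 0.047). ARG1, arginase, which releases urea in the urea cycle (chr6:131470832-131584332), had 76.7, 147 and 94.6 CPM at 24 h and 283, 208 and 380.4 CPM at 48 h (1.44 ± 0.32; DESeq2 adjusted p = 0.0028, limma-voom adjusted p = 0.046). With the no-feature share as a covariate the log2 fold changes of HAL, ASGR1 and ARG1 were 1.61, 1.31 and 2.05. Of the 25 genes of amino acid breakdown and the urea cycle tested, 4 (16.0%), HAL and ARG1 among them, were higher and 1 lower at an unadjusted p under 0.05, and 7 were higher without Molidustat 24 h replicate 1. AGXT, which detoxifies glyoxylate, was another of the 4 at 0, 3.82 and 1.60 CPM at 24 h and 10.5, 13.5 and 21.0 CPM at 48 h.

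Among 39 plasma protein genes tested, 32 had a positive log2 fold change, 11 (28.2%) were higher at an unadjusted p under 0.05 and 0 lower, and the median was 0.49. F12, coagulation factor XII, had 40.0, 35.6 and 39.7 CPM at 24 h and 119, 79.8 and 85.8 CPM at 48 h (DESeq2 adjusted p = 0.0087). SERPINF2, the plasmin inhibitor, had 198, 156 and 153 CPM at 24 h and 354, 314 and 328 CPM at 48 h (DESeq2 adjusted p = 0.018). F10, coagulation factor X, had 74.9, 71.8 and 77.9 CPM at 24 h and 139, 113 and 154 CPM at 48 h, and TF, the iron carrier transferrin, 2641, 3079 and 3312 CPM at 24 h and 5266, 4359.6 and 5632 CPM at 48 h, without a call by any of the 3 tools. None of these 4 genes overlapped between the times. The count of 11 varied between 5 and 15 when 1 library was left out, was 5 without Molidustat 48 h replicate 3, 6 without Molidustat 24 h replicate 1 and 7 without Molidustat 48 h replicate 1, and there were 2 higher and 1 lower with the no-feature share as a covariate.

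Apolipoproteins and the enzymes that act on lipoproteins had 12 positive and 7 negative log2 fold changes among 19, with 5 (26.3%) higher and 0 lower at an unadjusted p under 0.05. APOE, the ligand for remnant uptake, had 329, 333 and 309 CPM at 24 h and 600.1, 575 and 1025 CPM at 48 h (log2 fold change 1.17 ± 0.28; DESeq2 adjusted p = 0.0072). APOA1, the main protein of HDL, had 2429, 830.3 and 2117 CPM at 24 h, where replicate 2 was low, and 3248, 3937 and 3993 CPM at 48 h. LIPC, hepatic lipase, had 4.08, 18.8 and 23.0 CPM at 24 h and 28.3, 51.4 and 55.2 CPM at 48 h and APOH 66.0, 67.4 and 47.3 CPM at 24 h and 97.5, 101 and 118 CPM at 48 h. Leaving out Molidustat 24 h replicate 3 gave 10 genes in place of 5, and leaving out Molidustat 48 h replicate 3 gave 3. The covariate fit gave 0.

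Fatty acid oxidation showed 6 of 21 genes (28.6%) higher and 0 lower at an unadjusted p under 0.05, with a median of 0.41. SLC25A20, which carries acyl-carnitines across the inner mitochondrial membrane, and CPT2, which turns them back into acyl-CoA, had 13.4 to 36.5 and 14.8 to 31.5 CPM at 24 h and 49.9 to 59.5 and 45.5 to 57.3 CPM at 48 h. ACADVL, the very-long-chain acyl-CoA dehydrogenase, had 83.9 to 116 and then 135 to 180.5 CPM. Leaving out Molidustat 48 h replicate 2 gave 3 genes and the covariate fit gave 2. FADS1, a desaturase of polyunsaturated fatty acids, was called higher by DESeq2 (adjusted p = 0.011), with 892, 883 and 903 CPM at 24 h and 1761, 1694 and 1527 CPM at 48 h. Its neighbour FADS2 had 385, 416 and 316 CPM at 24 h and 634, 619.8 and 616 CPM at 48 h. Cholesterol synthesis was split, with 4 of 25 genes higher and 2 lower. The 4 became 2 without Molidustat 24 h replicate 1, 1 without Molidustat 24 h replicate 3 or 48 h replicate 1, 0 without Molidustat 48 h replicate 3 and 1 in the covariate fit. HMGCS1, which makes HMG-CoA, had 2323, 4410.4 and 3360.1 CPM at 24 h and 1908, 1932 and 1753 CPM at 48 h, and TM7SF2, a sterol reductase, 60.4, 59.8 and 34.3 CPM at 24 h and 77.8, 87.0 and 114 CPM at 48 h. Of 12 bile acid genes tested, 2 were higher, among them CYP27A1, a sterol hydroxylase, at 42.2, 25.7 and 17.0 CPM at 24 h and 68.7, 48.7 and 56.2 CPM at 48 h.

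Of 21 hepatocyte transcription factors tested, 0 were higher and 1 lower at an unadjusted p under 0.05. The 1 was HNF4A, a nuclear receptor that activates many of the secreted protein genes above, with 308, 192 and 473 CPM at 24 h and 161, 153 and 112 CPM at 48 h (log2 fold change -1.22 ± 0.33; DESeq2 adjusted p = 0.045, a call kept in 1 of 6 fits that left out a library). In DMSO it had 114, 229.6 and 801 CPM at 24 h, in libraries whose no-feature share was 19.4, 20.05 and 25.2%, and 73.9 and 219.7 CPM at 48 h, where the share was 19.6 and 23.0%. With that share as a covariate the log2 fold change under Molidustat was -1.22, and the part of the share in it was not tested further.

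Of the HIF target genes tested, 7 of 40 were higher and 2 lower at 48 h without overlap of the libraries (the background was 7.51% and 6.98%), and 5 well-known HIF-responsive genes overlapped between 24 h and 48 h of Molidustat. Of these 5, LDHA and PGK1 are counted in the glycolysis list and not among the 40. BNIP3, a mitophagy receptor, had 1163, 1022 and 1279 CPM at 24 h and 1163, 1161 and 1245 CPM at 48 h, against 107 to 199.8 CPM in DMSO at 24 h. LDHA, lactate dehydrogenase, had 1331, 1847 and 1077 CPM at 24 h and 1324, 1347 and 1853 CPM at 48 h, and PGK1, a glycolytic kinase, 492, 744 and 367 CPM at 24 h and 451, 449 and 560.3 CPM at 48 h. The glucose transporter gene SLC2A1 had 72.3, 90.7 and 58.5 CPM at 24 h and 94.99, 47.8 and 77.0 CPM at 48 h and the angiogenic factor gene VEGFA 66.3, 78.2 and 83.1 CPM at 24 h and 85.9, 55.4 and 79.9 CPM at 48 h. The libraries of the 2 times overlapped for all 5, and the log2 fold changes and their 95% intervals were 0.03 (-0.48 to 0.53) for BNIP3, 0.08 (-0.50 to 0.66) for LDHA, -0.15 (-0.76 to 0.47) for PGK1, -0.02 (-0.70 to 0.66) for SLC2A1 and -0.05 (-0.66 to 0.56) for VEGFA. With the no-feature share as a covariate the values were -0.060 for BNIP3, 0.17 for LDHA, 0.057 for PGK1, 0.50 for SLC2A1 and 0.36 for VEGFA, so that of these 5 only LDHA kept its direction.

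The HIF targets EPO, MIR210HG, DDIT4 and NDRG1 lay higher at 48 h without overlap, and of these only EPO was called, by DESeq2. EPO, erythropoietin, the hormone of red cell production (chr7:100720468-100723700), had 14.1, 43.4 and 17.0 CPM at 24 h and 54.6, 73.5 and 95.1 CPM at 48 h, with no overlap. Its log2 fold change was 1.55 ± 0.42 (edgeR adjusted p = 0.32), and DESeq2 called it (adjusted p = 0.042), a call kept in 1 of the 6 fits that left out a library. MIR210HG, the host transcript of a hypoxia-induced microRNA, had 41.5, 32.7 and 42.7 CPM at 24 h and 78.5, 87.0 and 75.7 CPM at 48 h. DDIT4, which restrains mTORC1, had 199.8, 95.3 and 132 CPM at 24 h and 288, 245 and 353 CPM at 48 h, and NDRG1, a stress-responsive gene, 14.8, 26.7 and 20.8 CPM at 24 h and 47.4, 33.8 and 36.2 CPM at 48 h. The libraries of the 2 times were apart in all 4. Of 40 HIF targets tested, 5 (12.5%) were higher and 0 lower at an unadjusted p under 0.05, with a median of 0.079. Of the 43 on the list, 3 were too low to be tested, CA9 among them. SPAG4, a sperm antigen gene and HIF target, had 133, 161 and 109.8 CPM at 24 h and 187, 170.4 and 229 CPM at 48 h, and ALDOC, the brain-type aldolase, 43.4, 36.0 and 46.3 CPM at 24 h and 79.4, 61.3 and 61.9 CPM at 48 h. Leaving out Molidustat 48 h replicate 1 gave 3 of the 40 higher, and the covariate fit gave 2.

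Genes of the oxygen-sensing machinery overlapped between the times or lay lower at 48 h. EGLN1, itself a HIF target, had 99.3, 111 and 107 CPM at 24 h and 94.8, 90.2 and 88.9 CPM at 48 h. EGLN2 and EGLN3 overlapped between the times (35.5 to 46.1 CPM at 24 h and 40.6 to 74.6 CPM at 48 h for EGLN2, 4.82 to 9.29 CPM at 24 h and 4.96 to 18.1 CPM at 48 h for EGLN3). HIF1A had 149.7, 241 and 123 CPM at 24 h and 126, 81.6 and 119.8 CPM at 48 h. EPAS1 had 184, 474 and 222 CPM at 24 h and 180.5, 144 and 133 CPM at 48 h and VHL 110.4, 280.2 and 259 CPM at 24 h and 130.3, 82.5 and 137 CPM at 48 h. In HIF1A, EPAS1 and VHL the highest value was that of Molidustat 24 h replicate 2. Of 14 such genes tested, 2 (EPAS1 and VHL) lay lower at an unadjusted p under 0.05, 0 without that library and 0 in the covariate fit. The covariate fit gave log2 fold changes of 0.03 for EPAS1 and 0.22 for VHL, against -0.95 and -0.90.

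Hypoxia response elements hold the core ACGTG or GCGTG. On either strand ACGTG occurs in 21.4% and GCGTG in 36.5% of the 35116 promoter windows, and they occur in 20 and 22 of the 34 tested HIF targets with a window. The Molidustat libraries of DDIT4 lay higher at 48 h without overlap, but edgeR, DESeq2 and limma-voom did not call it. In BNIP3, LDHA and PGK1 the times overlapped. Cores are read on either strand (CACGT and CACGC are the other strand's form). Stretches of 80 bases with the cores in capitals are shown for DDIT4, BNIP3, LDHA and PGK1. They lie at chr10:72273762-72273841 (plus), chr10:131982015-131982094 (minus), chr11:18394341-18394420 (plus) and chrX:78104009-78104088 (plus) in GRCh38.p14.
DDIT4: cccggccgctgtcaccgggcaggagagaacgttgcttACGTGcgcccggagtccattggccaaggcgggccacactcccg
BNIP3: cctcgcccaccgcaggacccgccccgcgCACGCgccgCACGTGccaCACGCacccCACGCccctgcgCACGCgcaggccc
LDHA: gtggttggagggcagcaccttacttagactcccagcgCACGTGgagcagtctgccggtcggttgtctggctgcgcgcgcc
PGK1: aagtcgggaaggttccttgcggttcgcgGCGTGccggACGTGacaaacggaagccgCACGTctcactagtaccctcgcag

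**Figure D2:**
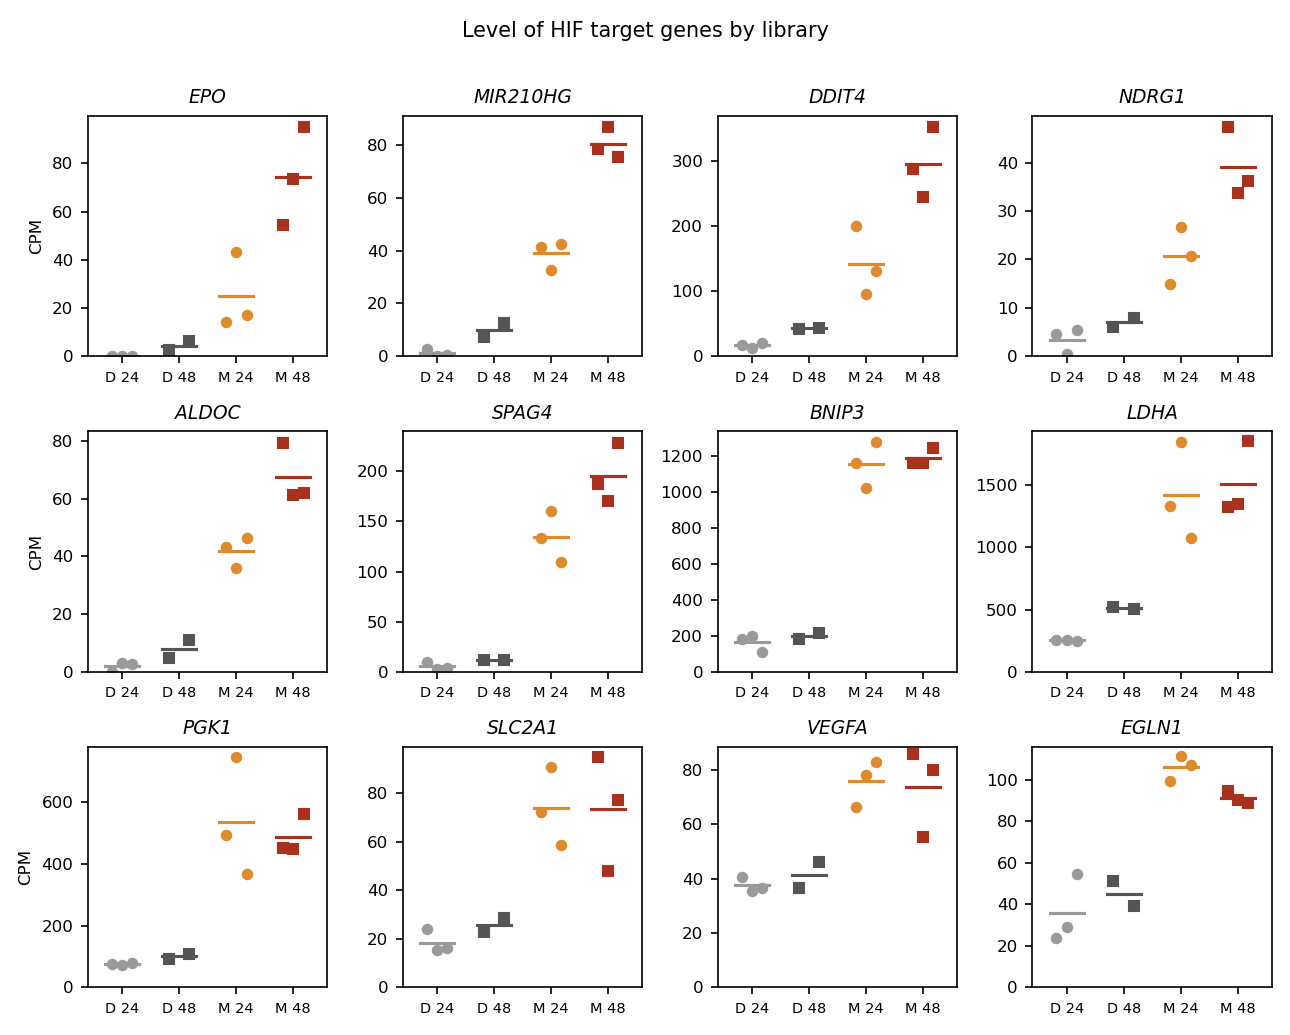
CPM of 12 genes of the HIF response in each of 11 libraries (D, DMSO; M, Molidustat; 24 and 48, hours; short lines are group means, linear axes). In the top row (EPO, MIR210HG, DDIT4, NDRG1) the Molidustat 48 h libraries lie above those at 24 h, and BNIP3, LDHA, PGK1, SLC2A1 and VEGFA overlap between the Molidustat times.

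In DMSO several of these targets lay higher at 48 h, from a low level at 24 h. EPO had 0 counts in the 3 DMSO libraries at 24 h and 2.701 and 6.08 CPM in the 2 at 48 h. LDHA had 252, 255 and 249 CPM and 523 and 505 CPM, and DDIT4 17.0, 12.6 and 19.6 CPM and 41.1 and 43.8 CPM. In the fit of 11 libraries the median log2 fold change of 41 HIF targets was 0.54 in DMSO and 0.099 under Molidustat, and that of 25 glycolysis genes was 0.44 in DMSO and -0.089 under Molidustat. Of the 22 glycolysis genes tested in the 6 libraries, 1 (ALDOC) was higher and 1 lower at an unadjusted p under 0.05. The latter was SLC16A1, a lactate transporter, with 90.1, 95.9 and 91.0 CPM at 24 h and 46.9, 36.5 and 60.1 CPM at 48 h. In the DMSO comparison edgeR called no gene of these lists. TXNIP, which limits glucose uptake, had 129, 131 and 184 CPM under Molidustat at 24 h and 151, 152 and 125 CPM at 48 h, and 9.71, 9.42 and 8.18 CPM and 24.7 and 25.2 CPM in DMSO. The difference between its time changes was -1.51 (95% interval -2.29 to -0.73), with an edgeR adjusted p of 0.9998.

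Several further genes, named by a rule that required no overlap between the times, were at a higher level at 48 h. UPK1A-AS1, a long non-coding RNA, had 7.04, 5.85 and 5.39 CPM at 24 h and 24.4, 39.7 and 33.3 CPM at 48 h (log2 fold change 2.40 ± 0.43; DESeq2 adjusted p = 2.3e-04). LGALS14, a galectin known from placenta, had 17.0, 8.27 and 14.0 CPM at 24 h and 41.8, 92.4 and 53.1 CPM at 48 h (2.24 ± 0.41; DESeq2 adjusted p = 2.3e-04) and was at or near 0 in DMSO at both times. Its covariate value was 1.13. TM4SF4, a four-span membrane protein of liver and gut, had 11.9, 6.11 and 8.39 CPM at 24 h and 37.9, 29.3 and 50.6 CPM at 48 h. CDX2, a homeobox factor of the intestine, had 19.3, 10.1 and 12.4 CPM at 24 h and 47.6, 46.4 and 50.4 CPM at 48 h, with 19.4 to 23.2 CPM in DMSO at 24 h. WDR54, BEX4 and ERP27 had means of 13.1, 5.08 and 8.21 CPM at 24 h and 47.7, 25.1 and 35.6 CPM at 48 h, each called higher by DESeq2 (adjusted p = 0.0033, 0.0031 and 0.0045). TSPAN7, a tetraspanin, had 2 counts over the 24 h libraries and 142 over the 48 h libraries, a ratio of 94.8 per unit of depth with a 95% counting interval of 25.8 to 790.0. OOEP, known from oocytes, had 1 and 65 counts (ratio 86.8, interval 15.0 to 3478). These intervals are exact, cover counting error only, and leave out the spread between cultures. Both genes had counts in some DMSO libraries at 24 h (up to 11.4 CPM for TSPAN7 and 3.55 CPM for OOEP).

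Beside the chemokines, 8 genes of differing roles were among those lower at 48 h with the smallest p. CDH6, a cadherin, had 42.6, 57.9 and 44.1 CPM at 24 h and 12.3, 10.8 and 13.2 CPM at 48 h (log2 fold change -2.00 ± 0.35; DESeq2 adjusted p = 2.3e-04). SOX9, a factor of biliary and progenitor cells, had 324, 470.0 and 331 CPM at 24 h and 174, 112 and 147 CPM at 48 h (-1.39 ± 0.28; DESeq2 adjusted p = 5.6e-04), and 287 to 471 CPM and 303 to 321 CPM in DMSO. LYZ, lysozyme, had 169, 153 and 158 CPM at 24 h and 49.5, 45.1 and 74.7 CPM at 48 h (-1.51 ± 0.29; DESeq2 adjusted p = 3.9e-04). A long non-coding RNA without a symbol that overlaps LYZ on the other strand was also called lower in the fit of 11 libraries (adjusted p = 0.047), and since strand use in the counting is not given in the sources used here, its reads and those of LYZ cannot be told apart. CRIM1, which binds BMP growth factors, had 217, 339.7 and 196 CPM at 24 h and 101, 79.3 and 89.9 CPM at 48 h, and BMP2, one of those factors, 105, 187 and 115 CPM at 24 h and 45.1, 24.8 and 52.9 CPM at 48 h. SLIT2, a guidance ligand, had 170.1, 122 and 257 CPM at 24 h and 72.7, 62.7 and 48.6 CPM at 48 h. RASSF3 and MCC had means of 105 and 48.2 CPM at 24 h and 37.1 and 15.3 CPM at 48 h. DESeq2 called all 8 of these genes, and limma-voom called SOX9, LYZ, CRIM1 and SLIT2. The rule that named these 8 required no overlap between the times. In the fit of 11 libraries, the DMSO log2 fold changes were -1.55 for BMP2 and RASSF3, -1.12 for SLIT2 and -1.09 for CRIM1. For LYZ, CDH6, SOX9 and MCC they were -0.66, -0.35, -0.23 and -0.18. EdgeR called none of these genes in DMSO.

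CTNNB1 (β-catenin, chr3:41194741-41260096) and TRA2A (a splicing factor, chr7:23504780-23532041) were also called lower by DESeq2 and limma-voom, and their levels went with the no-feature share within both DMSO groups. CTNNB1 had 380.2, 494 and 625 CPM at 24 h and 210.4, 85.2 and 139 CPM at 48 h, and TRA2A 413, 462 and 533 CPM at 24 h and 221, 135 and 156 CPM at 48 h. In the 3 DMSO libraries at 24 h, where the no-feature share was 19.4, 20.05 and 25.2%, CTNNB1 had 81.2, 327 and 903 CPM and TRA2A 232, 361 and 639 CPM. Among the Molidustat libraries at 24 h both genes were highest in replicate 3 and not in replicate 2, which had the largest share. With the share as a covariate the log2 fold change was -0.93 for CTNNB1 against -1.80, and -0.98 for TRA2A against -1.47. For BMP2 and SOX9 it was -1.03 and -0.84 against -1.73 and -1.39, and for LGALS14, PDGFA and LOXL4 1.13, -0.63 and -0.71 against 2.24, -1.34 and -1.76. The part of this share in the differences was not tested beyond these values.

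**Figure D3:**
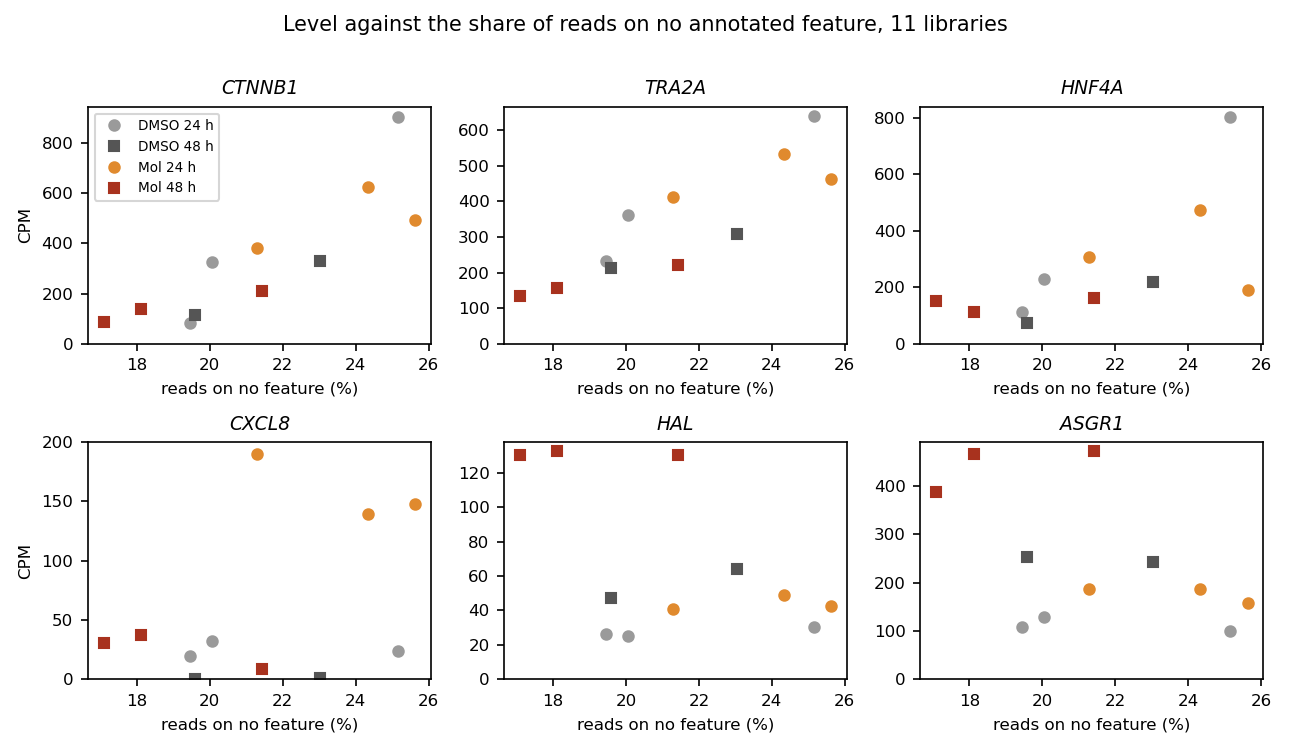
CPM of 6 genes against the share of reads on no annotated feature (%), 1 point per library, 11 libraries. Within both DMSO groups CTNNB1 and TRA2A are higher where the share is higher, and HAL and ASGR1 are highest in the 3 Molidustat 48 h libraries, whose shares reach 21.4%, next to a Molidustat 24 h library at 21.3%.

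Of 23 immediate early genes tested, 7 (30.4%) lay lower and 0 higher at an unadjusted p under 0.05, with a median of -0.63 and no call by any of the 3 tools. MYC, a growth-promoting transcription factor, had 33.0, 68.1 and 29.9 CPM at 24 h and 16.5, 19.4 and 12.6 CPM at 48 h. JUND had 54.5, 146 and 54.7 CPM at 24 h and 37.9, 28.9 and 41.6 CPM at 48 h, IER3 24.8, 51.7 and 16.6 CPM at 24 h and 7.43, 12.6 and 14.2 CPM at 48 h, and SRF, which drives many of these genes, 23.3, 18.3 and 7.79 CPM at 24 h and 7.43, 6.31 and 3.31 CPM at 48 h. Without Molidustat 24 h replicate 2, the highest library for MYC, JUND and IER3, 4 of the 23 were lower, as without Molidustat 24 h replicate 1 or 48 h replicate 2, and 1 was lower in the covariate fit. Of 17 targets of YAP and TEAD, which respond to cell contact and tension, 4 (23.5%) were lower and 0 higher, and in the fit of 11 libraries the median of 18 such genes was -0.37 under Molidustat and -0.37 in DMSO. Beside CRIM1 the genes lower were PTPN14 (21.1, 64.8 and 21.6 CPM at 24 h and 9.99, 9.47 and 16.3 CPM at 48 h), ANKRD1 (17.0, 12.9 and 28.2 CPM at 24 h and 1.16, 5.41 and 9.72 CPM at 48 h) and CCN1 (34.5, 18.6 and 40.5 CPM at 24 h and 3.02, 14.4 and 17.9 CPM at 48 h). Matrix and TGF-β genes had 5 of 27 lower (18.5%) and 1 higher. THBS1, thrombospondin, had 27.1, 35.5 and 18.8 CPM at 24 h and 7.90, 10.4 and 5.06 CPM at 48 h, LOXL4, a collagen cross-linking oxidase, 31.5, 104 and 37.3 CPM at 24 h and 17.9, 20.3 and 14.0 CPM at 48 h, and VIM, vimentin, 245, 457 and 258 CPM at 24 h and 153, 165 and 179.9 CPM at 48 h. DESeq2 called THBS1 and LOXL4 lower (adjusted p = 0.037 and 0.034), calls kept in 0 and 2 of the 6 fits that left out a library. Of the matrix genes 3 were lower without Molidustat 48 h replicate 1 or 2, 3 with total counts for scaling and 1 in the covariate fit.

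**Figure D4:**
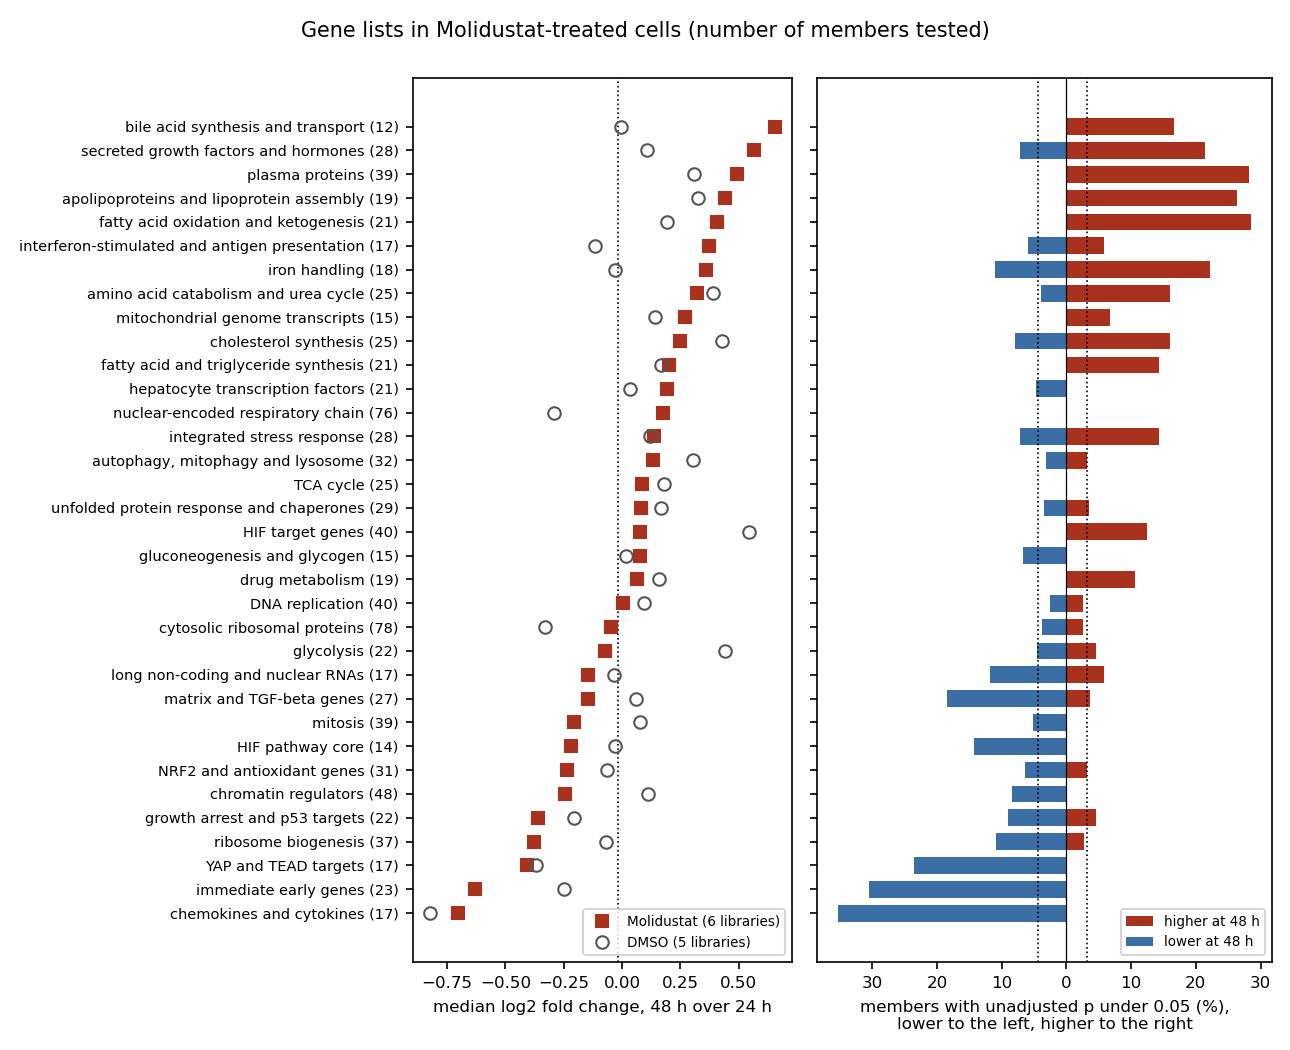
For each of 34 gene lists (number of members tested in brackets), the left panel gives the median log2 fold change (48 h over 24 h) under Molidustat and in DMSO, and the right panel the percentage of members higher or lower under Molidustat at an unadjusted p under 0.05. Dotted lines are the values of all genes tested. In the fit of the 6 libraries, bile acid genes, secreted growth factors, plasma proteins, apolipoproteins and fatty acid oxidation have the 5 highest medians under Molidustat. Chemokines, immediate early genes and YAP targets have the 3 lowest. In the fit of 11 libraries, interferon and antigen presentation genes (0.44) lie above fatty acid oxidation (0.43).

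Secreted growth factors and hormones went both ways, with 6 of 28 higher (21.4%) and 2 lower. PDGFA, a growth factor of mesenchymal cells, was called lower by DESeq2 with 148, 223 and 221 CPM at 24 h and 93.8, 48.2 and 93.4 CPM at 48 h (adjusted p = 0.011), and EFNA1, an ephrin, was higher at 115, 62.0 and 68.7 CPM at 24 h and 146, 147 and 206 CPM at 48 h. NTS, neurotensin, had 684, 403 and 431 CPM at 24 h and 848, 853 and 881 CPM at 48 h and 422 to 697 CPM and 399 to 527 CPM in DMSO. In iron handling, 4 of 18 genes were higher (22.2%) and 2 lower. Beside TF these included HJV and TFR2, which sense iron at the hepatocyte surface, with at most 2.60 and 3.59 CPM at 24 h and 4.96 to 16.0 and 6.503 to 14.2 CPM at 48 h. SLC40A1, the iron exporter ferroportin, had 155, 119.9 and 156 CPM at 24 h and 303, 198 and 233 CPM at 48 h. The times were apart for all of these genes. Without Molidustat 48 h replicate 1 the genes higher were 3 in the secreted list and 2 in the iron list, and the covariate fit gave 3 and 2. Among 28 genes of the integrated stress response, 4 were higher (2 in the covariate fit) and 2 lower. PHGDH, of serine synthesis, had 33.4, 48.1 and 47.1 CPM at 24 h and 87.6, 92.4 and 98.2 CPM at 48 h (DESeq2 adjusted p = 0.037), and DDIT3, the stress factor CHOP, 45.2, 51.3 and 53.5 CPM at 24 h and 79.2, 91.5 and 118 CPM at 48 h. ATF5, another factor of this response, had 47.1, 19.1 and 48.3 CPM at 24 h and 16.3, 9.47 and 14.6 CPM at 48 h. Of 31 antioxidant genes 1 was higher and 2 lower, and of the latter MT1X, a metallothionein, had 12.6, 29.9 and 26.8 CPM at 24 h and 3.48, 8.57 and 3.31 CPM at 48 h (DESeq2 adjusted p = 0.025).

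Lists of proliferation, energy metabolism and ribosomes follow, beside the background of 3.24% higher and 4.37% lower. DNA replication had 1 of 40 genes higher and 1 lower, with a median of 0.0019. Of 39 mitosis genes 32 had a negative log2 fold change, but the median was -0.20 and 2 (5.13%) lay lower at an unadjusted p under 0.05, CENPA, the centromeric histone, at 58.2, 60.8 and 57.3 CPM at 24 h and 40.9, 32.9 and 37.0 CPM at 48 h, and CDC20, an activator of mitotic exit, at 115, 115 and 85.1 CPM at 24 h and 72.7, 50.04 and 79.5 CPM at 48 h. That median was 0.0032 without Molidustat 24 h replicate 3. Among 76 nuclear genes of the respiratory chain and 25 of the TCA cycle, 0 were at an unadjusted p under 0.05, and neither DESeq2 nor limma-voom called any. Of the 76, 63 had a positive log2 fold change with a median of 0.18. In the fit of 11 libraries the median of 77 such genes was 0.20 under Molidustat and -0.29 in DMSO. Of 78 cytosolic ribosomal protein genes 2 were higher and 3 lower, RPL23 with 660.0, 1038 and 1188 CPM at 24 h and 442, 517 and 474 CPM at 48 h and RPL37 with 104, 120.0 and 153 CPM at 24 h and 301, 215 and 157 CPM at 48 h. Both have processed pseudogenes with which reads may be shared. The count lower was 7 without Molidustat 24 h replicate 2, 8 without Molidustat 48 h replicate 2 and 1 in the covariate fit. DESeq2 called RPL23 lower (adjusted p = 0.027), a call kept in 1 of the 6 fits that left out a library. Ribosome biogenesis had 29 of 37 genes with a negative log2 fold change, a median of -0.38, 1 higher and 4 lower (10.8%), LTV1 among the latter at 38.5, 44.5 and 72.7 CPM at 24 h and 17.0, 30.2 and 19.4 CPM at 48 h. Chromatin regulators had 4 of 48 lower (8.33%) and 0 higher, ARID2, of the PBAF complex, with 119.7, 93.1 and 99.6 CPM at 24 h and 56.9, 46.4 and 52.9 CPM at 48 h. Without Molidustat 24 h replicate 3 or 48 h replicate 1 each of these 2 lists had 2 lower, ribosome biogenesis had 9 without Molidustat 24 h replicate 2, and the chromatin list had 2 with total counts and 1 in the covariate fit.

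Whether the time change depended on Molidustat was tested as an interaction in the 11 libraries. EdgeR called 0 of 15253 genes in either direction, with 189 positive (1.24%) and 298 negative (1.95%) at an unadjusted p under 0.05 and a smallest adjusted p of 0.9998. HAL, ASGR1 and ARG1 also stood higher at 48 h in DMSO, by 1.04 ± 0.27, 1.15 ± 0.24 and 1.69 ± 0.40 on the log2 scale (SE), and the difference between the treatments was 0.53 (95% interval -0.24 to 1.30) for HAL, 0.17 (95% interval -0.50 to 0.84) for ASGR1 and -0.24 (95% interval -1.34 to 0.85) for ARG1. UPK1A-AS1 and CDX2 had time changes of 0.11 ± 0.53 and 0.31 ± 0.36 in DMSO, and the differences were 2.30 (95% interval 0.81 to 3.80) and 1.51 (95% interval 0.48 to 2.54). For SOX9 the difference was -1.14 (95% interval -1.94 to -0.35) and for MCC -1.47 (95% interval -2.36 to -0.58). CDH6 had a difference of -1.64 (95% interval -3.06 to -0.22) and LYZ of -0.84 (95% interval -1.63 to -0.039). For CRIM1 and BMP2 it was -0.40 (95% interval -1.18 to 0.39) and -0.17 (95% interval -1.17 to 0.83). For SLIT2 and RASSF3 it was -0.45 (95% interval -1.50 to 0.60) and 0.061 (95% interval -1.16 to 1.29). These intervals are not adjusted for the number of genes. Apart from TXNIP, the 5 genes with the smallest p in this test were at low levels. NOTUM, which inactivates Wnt ligands, had 0 counts in the 3 Molidustat 24 h libraries and 45 at 48 h, at least 20.02-fold higher against a floor of 3 counts over the group, and 6.87, 5.50 and 3.01 CPM in DMSO at 24 h and 1.14 and 2.17 CPM at 48 h. DESeq2 called NOTUM alone in the interaction (adjusted p = 0.036). OCA2 and GPR146 had 4.79 to 21.5 and 11.4 to 19.3 CPM under Molidustat at 24 h and 0.451 to 3.02 and 1.80 to 13.4 CPM at 48 h. In DMSO, OCA2 had at most 0.646 CPM at 24 h and 4.98 and 1.41 CPM at 48 h. GPR146 had 0 CPM in DMSO at 24 h and 1.14 and 1.95 CPM at 48 h. CA8, a carbonic anhydrase-related gene, had 1.11 to 6.19 CPM under Molidustat at 24 h and 0 to 0.389 CPM at 48 h, and 0 CPM in the DMSO 24 h libraries and 1.14 and 2.39 CPM in those at 48 h.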

How the data were processed

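Per the submitters' notes, the authors aligned 3′ end reads to GRCh38 with STAR 2.7.9a and counted them per gene with HTSeq 0.11.2. The annotation release, the strand setting and the use of molecular identifiers are not given in the sources used here. The deposited values are raw counts for 60666 genes and 5 summary lines (17.1 to 25.6% of reads on no feature in the libraries used), which were left out. Of these genes, 60437 have a GENCODE 44 record (GRCh38), the source of names and positions. With edgeR 4.0.16 (TMM factors, filterByExpr, quasi-likelihood test) the 6 Molidustat libraries were compared, and 11 libraries entered the test of the difference from DMSO. Adjusted p-values are Benjamini-Hochberg over all genes tested, with a threshold of 0.05. DESeq2 1.42.0, limma-voom 3.58.1, other scalings and filters, the replicate number as a block, leaving out each library and the share of reads on no feature as a covariate were alternatives, the last of these and DESeq2 with a library left out added after the data were seen. The comparison of the 6 Molidustat libraries by edgeR, DESeq2 and limma-voom was tested on simulated data, and the other steps were not. Named genes were, in each direction, the 12 of smallest p without overlap between the times and with a mean of at least 5 CPM at the higher time, up to 4 of smallest p in each of 34 gene lists, the HIF genes fixed by name and the 5 of smallest p in the difference test. CCL20, NFKBIA and the GGAATTTCC search were added after their values were seen. A few genes that meet these rules are not reported here. The members and lists were chosen with earlier results of these data known.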

Additional observations from a re-analysis of the deposited data

How the results depend on the processing

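Between Molidustat 24 h and 48 h, edgeR called 0 genes also with RLE factors, total counts, all 12 libraries, any 1 library left out, and the no-feature share as a covariate (273 higher and 220 lower at an unadjusted p under 0.05). Calls were 28 higher and 53 lower by DESeq2, 3 and 10 by limma-voom, 19 and 50 without a filter on low counts, 2 and 2 in the fit of 11 libraries, and 1 lower (CXCL8) with at least 10 counts in each library or with counts thinned to the smallest library. DESeq2 called 38 higher and 53 lower without Molidustat 24 h replicate 1, 37 and 44 without replicate 2 and 23 and 35 without replicate 3, and 13 and 32, 11 and 21, and 6 and 14 without Molidustat 48 h replicates 1, 2 and 3. Of the genes called, 16 to 58 were among the 81 called with all 6 libraries. In DMSO, DESeq2 called 9 higher and 7 lower and the fit of 12 libraries 1 lower, and leaving out a library gave 0 to 1 higher and 0 to 2 lower. For the difference between treatments DESeq2 called 1 gene higher. With the replicate number as a replicate block, edgeR called 0 genes for Molidustat (361 higher and 418 lower at an unadjusted p under 0.05), 0 for the difference and 1 lower in DMSO. Deviations of Molidustat samples of the same number from their group means correlated across the times at r = 0.036, -0.13 and -0.080. Those of unlike numbers ranged from -0.088 to 0.14. Deviations within 3 libraries are tied to each other, so this cannot decide whether samples of the same number shared a batch.

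EPAS1 and VHL, at -0.95 and -0.90 and each with an unadjusted p under 0.05, and genes with values near 0 changed sign under some settings. None of them was called in the edgeR fit of the 6 libraries, and the cause was not tested. With the covariate the log2 fold change was 0.034 for EPAS1, 0.22 for VHL, 0.36 for VEGFA, -0.060 for BNIP3, 0.50 for SLC2A1, 0.057 for PGK1 and 0.054 for TXNIP. SLC2A1 was 0.044 by limma-voom, 0.024 with total counts and 0.036 thinned, and PGK1 was 0.026 by limma-voom. With 1 library left out the range was -0.22 to 0.76 for EGLN3, -0.16 to 0.12 for VEGFA, -0.067 to 0.13 for BNIP3, -0.088 to 0.30 for LDHA, -0.24 to 0.21 for SLC2A1, -0.34 to 0.15 for PGK1 and -0.17 to 0.14 for TXNIP. Of the genes named in the text, the others tested this way kept their direction under each of these settings. The smallest library, of 2312396 counts, limits what can be seen of genes with few counts.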

Other observations

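GJB1, connexin 32 of differentiated hepatocytes, had 50.8, 33.7 and 27.4 CPM at 24 h and 76.9, 97.4 and 123 CPM at 48 h (log2 fold change 1.40 ± 0.33, or 0.74 with the no-feature share as a covariate; DESeq2 adjusted p = 0.011), and GJA1, connexin 43, had 58.9, 29.4 and 35.5 CPM at 24 h and 9.75, 15.3 and 3.31 CPM at 48 h (-2.19 ± 0.52; DESeq2 adjusted p = 0.011). In DMSO, GJB1 had 27.2, 23.2 and 28.2 CPM at 24 h and 81.7 and 62.3 CPM at 48 h and GJA1 42.4, 16.1 and 29.5 CPM and 28.0 and 31.8 CPM. SOX4, a progenitor transcription factor, had 832, 901 and 986 CPM at 24 h and 505, 495 and 459 CPM at 48 h, and ACTB, cytoplasmic actin, 4782, 7429.8 and 4669.9 CPM at 24 h and 3199, 2446 and 2941 CPM at 48 h, both called lower by DESeq2 (adjusted p = 0.012 and 0.027). ECH1, of unsaturated fatty acid oxidation, had 879, 522 and 652 CPM at 24 h and 1390.0, 1247 and 1354 CPM at 48 h and was called higher (adjusted p = 0.037). Each of these DESeq2 calls was kept in 1 or 2 of the 6 fits that left out a library. LRRC75A and HNRNPH1, called lower by DESeq2 and limma-voom, had 838, 660.0 and 1405 CPM at 24 h and 439, 267 and 281 CPM at 48 h and 2772, 2076 and 3928 CPM at 24 h and 1653, 1177 and 913 CPM at 48 h, and in DMSO-treated cells at 24 h they had 375, 749 and 2137 CPM and 1860.2, 1979.9 and 5193 CPM, highest like CTNNB1 in the DMSO library with the largest no-feature share. Among the Molidustat libraries at 24 h the 2 genes were lowest in replicate 2, which had the largest share there. SNHG29, a long non-coding RNA that overlaps LRRC75A on the other strand, was also called lower by DESeq2 (adjusted p = 0.018). Since strand use in the counting is not given, its reads and those of LRRC75A cannot be told apart. SNHG29 and the 7 genes before it were chosen from the DESeq2 calls after their values were seen.

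In the remaining gene lists 0 to 3 members stood on either side at an unadjusted p under 0.05, where the background was 3.24% higher and 4.37% lower, and the edgeR fit of the 6 libraries called 0 of them. Fatty acid and triglyceride synthesis had 3 of 21 genes higher (14.3%, and 1 gene in the covariate fit) and 0 lower, with GPAM, of glycerolipid synthesis, at 9.27, 21.2 and 32.5 CPM at 24 h and 36.5, 50.04 and 42.0 CPM at 48 h. Drug metabolism had 2 of 19 higher (10.5%) and 0 lower, SULT1A1, a sulfotransferase, at 22.6, 18.96 and 18.6 CPM at 24 h and 43.4, 28.9 and 48.2 CPM at 48 h. Of 22 growth arrest and p53 target genes 1 was higher (CDKN2C, a CDK inhibitor, 23.0, 23.2 and 29.7 CPM at 24 h and 43.7, 37.9 and 54.3 CPM at 48 h) and 2 (9.09%) lower (MDM2, the ubiquitin ligase of p53, 91.2, 83.3 and 87.9 CPM at 24 h and 57.6, 62.2 and 34.6 CPM at 48 h, and CDKN2B). In gluconeogenesis and glycogen 0 of 15 were higher and 1 lower (PPP1R3B, a glycogen phosphatase subunit, 6.30, 19.3 and 7.59 CPM at 24 h and 1.39, 0.451 and 3.50 CPM at 48 h). The unfolded protein response had 1 of 29 higher and 1 lower (XBP1, 776, 690.4 and 609 CPM at 24 h and 977, 918 and 1151 CPM at 48 h, and CALR, calreticulin, 438, 445 and 848 CPM at 24 h and 377, 345 and 342 CPM at 48 h). Interferon and antigen presentation genes had 1 of 17 higher and 1 lower, autophagy and lysosome genes 1 of 32 higher and 1 lower, and long non-coding and nuclear RNAs 1 of 17 higher and 2 lower (11.8%). Of 15 transcripts of the mitochondrial genome 13 had a positive log2 fold change and 1 was higher at that p, MT-CYB at 1952, 937 and 1671 CPM at 24 h and 2469.6, 2629 and 2761 CPM at 48 h.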
